A study of Mus musculus with 8 samples.

Results

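The genes of major histocompatibility complex (MHC) class I and class II antigen presentation were followed in 8 mouse hearts under pressure overload. They were taken as every protein-coding row of the count table whose symbol starts with H2-, the mouse MHC, plus B2m, Cd74, Ciita, Nlrc5, Tap1, Tap2, Tapbp and Erap1. This gave 46 of 56748 rows, or of 21970 protein-coding rows: 33 class I genes, 12 class II genes and H2-Ke6, a gene of the region with no role in antigen presentation. Another 7 rows with an H2- symbol had a different biotype and were left out. The tested hearts came from cardiomyocyte-specific Smad7 knockouts (CMS7KO, n = 4) and were set against hearts of the aMHC Cre control (ACRE, n = 4). Smad7, an inhibitor of TGF-beta signalling, was excised by Cre from a transgene with the alpha myosin heavy chain (aMHC) promoter, which is active in cardiomyocytes and not in the other cells of the heart. All 8 animals carried this Cre and had transverse aortic constriction (TAC), a surgical narrowing of the aorta, for 7 days. They were male and female, 3 to 4 months old, of a strain the labels spell C56BL, and animals whose carotid flow ratio fell outside a set range were excluded. Polyadenylated RNA of the whole heart was sequenced, 1 library per heart, and no unoperated heart was analysed here.

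MHC class I molecules sit on almost every nucleated cell and hold up peptides cut from the cell's own proteins. A heavy chain pairs with beta-2 microglobulin, the transporter Tap1-Tap2 brings peptides into the endoplasmic reticulum, tapasin (Tapbp) bridges it to the waiting class I molecule, and Erap1 trims the peptides. Class II molecules are made mainly by macrophages, dendritic cells and B cells, which present peptides taken up from outside to helper T cells; the invariant chain (Cd74) guards their groove until H2-DM exchanges it for peptide. Nlrc5 and Ciita are the master coactivators of class I and class II transcription, and both sets of genes respond to interferon gamma. In a heart, class I transcripts can come from any of its cells, while class II transcripts are known mostly from its immune cells.

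No gene of either class passed the threshold for a difference between CMS7KO and ACRE hearts (0 of 28 tested by edgeR's quasi-likelihood test, adjusted p under 0.05). Over all 16780 genes tested, 6 passed (0.0358%), 3 higher (0.0179%) and 3 lower (0.0179%). At an unadjusted p under 0.05, 4 members were higher in CMS7KO (7.12% of all genes were) and 2 were lower (8.2% of all genes were). In 4 members every CMS7KO heart was above every ACRE heart (5.41% of all genes), and in 0 every one was below (4.18%; 9.59% in either direction). DESeq2 and limma voom also called 0 of the 28, although DESeq2 called 1.75% of all genes higher and 1.32% lower. The fitted values nevertheless lay mostly above 0: 14 of 18 class I genes and 9 of 9 class II genes, against 49.4% of all genes. The median log2 fold change was 0.36 for class I and 0.60 for class II, against -0.01 for all genes tested. Fitted without library CMS7KO 4, these medians were 0.02 for class I and 0.07 for class II, so that they depended on 1 of the 4 knockout hearts. With CMS7KO 4 kept and ACRE 2 and ACRE 4 left out, they were 0.07 and 0.20. The medians thus depended on those control hearts too. In RNA from whole hearts, more cells of a type and more RNA per cell cannot be told apart.

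Some facts of the libraries bear on every value below. Each held 12920435 to 17199600 counted reads, and the read share of mitochondrial genes was 16.4% to 23.5%, highest in CMS7KO 4. Smad7 itself had 30.9, 41.9, 38.9 and 43.1 CPM (read counts scaled to library size) in CMS7KO 1 to 4 and 34.6, 34.5, 32.7 and 23.9 CPM in ACRE 1 to 4, with an adjusted p of 0.415 by edgeR, so that its transcript level in whole hearts did not separate the labels, and counts per gene do not show which exons were excised. Libraries ACRE 2 and ACRE 4 stood apart from the other 6 on the first principal component, which held 43.3% of the variance. The labels call replicates 1 and 2 male and 3 and 4 female, but CMS7KO 3 and ACRE 3 held transcripts of 4 Y-linked genes and almost none of Xist. CMS7KO 4 and ACRE 4 were the libraries with Xist at 837 and 362 CPM and no read of the 4 Y-linked genes. Leaving out CMS7KO 3 and ACRE 3 gave medians of 0.43 for class I and 0.61 for class II. Leaving out ACRE 2 and ACRE 4 gave medians of 0.07 for class I and 0.20 for class II.

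**Figure D1:**
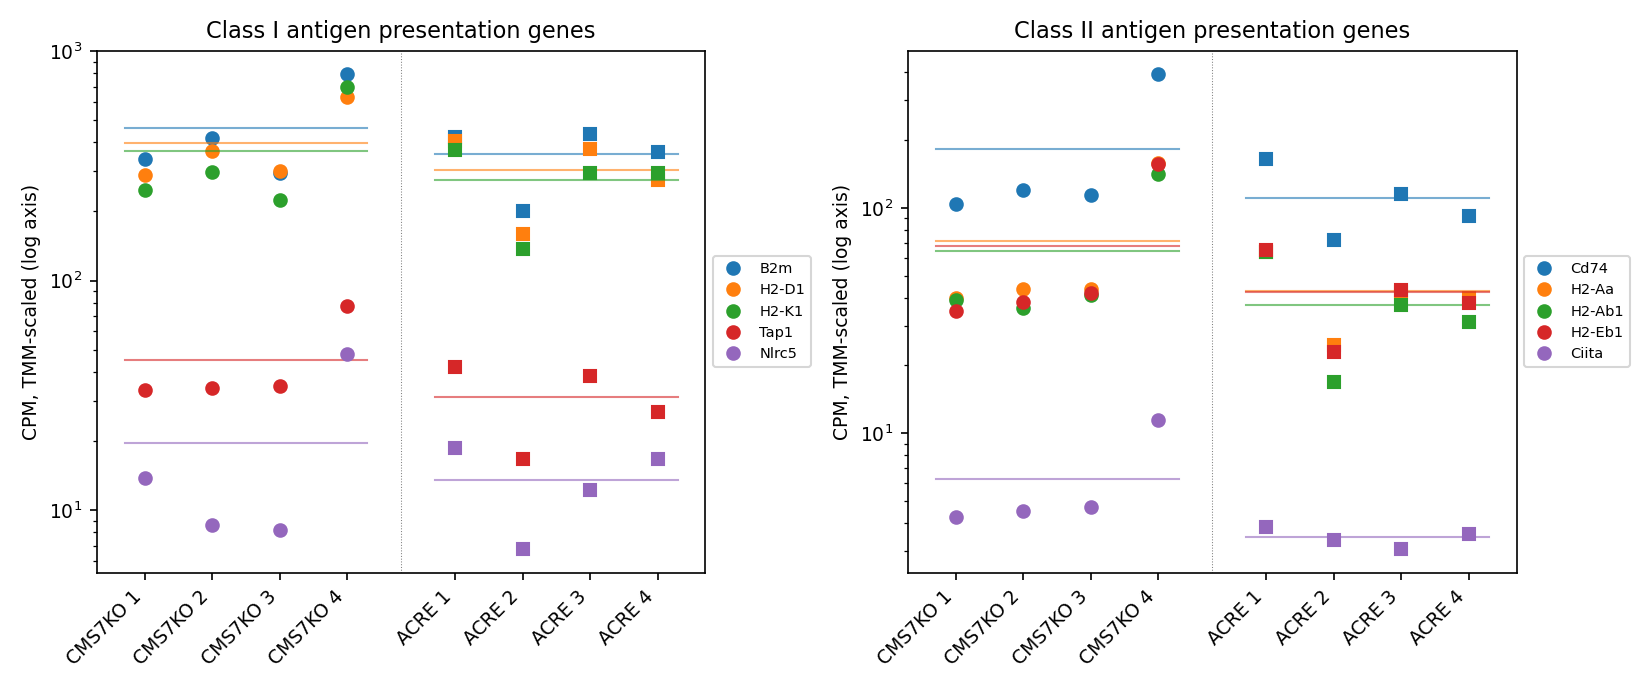
Scaled read counts (CPM, log axis) of 5 class I genes (left) and 5 class II genes (right) in each of the 8 libraries, with circles for CMS7KO, squares for ACRE and a line at each group's mean. CMS7KO 4 lies above all other libraries for each gene shown, while CMS7KO 1 to 3 lie among the ACRE libraries for all but Ciita.

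The classical class I heavy chains, H2-K1 and H2-D1, present peptides to CD8 T cells and were, with B2m, the most abundant members. H2-K1 (chromosome 17, 34214991 to 34219321 in the table's coordinates) had 248, 298, 225 and 700.2 CPM in CMS7KO 1 to 4, against 371, 137, 295 and 294 CPM in ACRE 1 to 4. The groups overlapped: CMS7KO 4 was the highest of the 8 libraries and ACRE 2 the lowest. The fold was 1.30 (95% confidence interval 0.70 to 2.41, adjusted p = 0.644 by edgeR). H2-D1 had 289, 369, 301 and 629 CPM in CMS7KO and 404, 159.9, 376 and 275 CPM in ACRE hearts, with the same libraries at its ends. Its fold was 1.29 (0.76 to 2.18, adjusted p = 0.595 by edgeR). Set against gene length, H2-D1 averaged 154 ± 61.5 CPM per kilobase in CMS7KO and 118 ± 42.9 in ACRE hearts (SD, n = 4 each). H2-K1 averaged 125 ± 76.1 CPM per kilobase in CMS7KO and 93.4 ± 33.4 in ACRE hearts. Within each of the 8 libraries H2-D1 was above H2-K1 by this measure. It had 112 against 84.5 CPM per kilobase in CMS7KO 1, but 244 against 238 in CMS7KO 4. The difference between these genes was not tested.

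B2m, the light chain shared by all class I molecules, followed the heavy chains. It had 337, 417, 295 and 791 CPM in CMS7KO 1 to 4, against 424, 202, 434 and 364 CPM in ACRE 1 to 4, a fold of 1.28 (0.76 to 2.17, adjusted p = 0.607 by edgeR). Per kilobase it stood above every other member, at 535 ± 263 CPM in CMS7KO and 414 ± 125 CPM in ACRE hearts (SD, n = 4 each). Together, H2-K1, H2-D1 and B2m made up 67.2% to 74.8% of the class I reads in CMS7KO and 64.6% to 71.0% in ACRE libraries.

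The peptide loading genes showed the same outlying hearts. Tap1 had 33.4, 34.1, 34.7 and 77.3 CPM in CMS7KO 1 to 4 and 41.9, 16.8, 38.4 and 26.8 CPM in ACRE 1 to 4. CMS7KO 1 to 3 were close together and inside the ACRE range, and CMS7KO 4 was above it. Its partner Tap2 averaged 43.4 ± 14.6 CPM in CMS7KO and 33.2 ± 7.80 CPM in ACRE hearts (SD, n = 4 each), with 65.1 CPM in CMS7KO 4. Tapbp was the steadiest member of this set, at 106 ± 6.53 CPM in CMS7KO and 95.7 ± 16.6 CPM in ACRE hearts, and CMS7KO 4 was not its highest library. Tapbp's fold was 1.11 (0.85 to 1.45).

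Nlrc5, the class I coactivator, had 13.8, 8.61, 8.21 and 47.8 CPM in CMS7KO 1 to 4, against 18.7, 6.77, 12.2 and 16.6 CPM in ACRE 1 to 4. CMS7KO 4 held 3.46 times the next highest knockout heart, and CMS7KO 2 and 3 lay below 3 of the 4 ACRE hearts. The log2 fold change was 0.39 with all libraries (SE 0.54, adjusted p = 0.733 by edgeR) and -0.43 without CMS7KO 4. Erap1, the peptide-trimming aminopeptidase, went the other way, with 27.4, 31.6, 25.3 and 37.4 CPM in CMS7KO and 34.9, 38.7, 35.6 and 60.0 CPM in ACRE hearts. The groups overlapped only in CMS7KO 4, and the log2 fold change was -0.46 (SE 0.20, unadjusted p = 0.0480, adjusted p = 0.323 by edgeR). Erap1 overlaps Cast on the opposite strand, which had 14977 reads against 4251 for Erap1, and whether the counting used strand is not stated in the labels.

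Of the 25 non-classical class I heavy chains, which include ligands of NK and unconventional T cell receptors, 10 had enough reads to be tested. H2-M3, which presents formylated peptides, had 7.61, 9.96, 10.2 and 11.6 CPM in CMS7KO 1 to 4, against 7.08, 6.71, 7.98 and 7.34 CPM in ACRE 1 to 4. Only CMS7KO 1 fell inside the ACRE range, and the fold was 1.35 (1.01 to 1.81, unadjusted p = 0.0467, adjusted p = 0.323 by edgeR). H2-T23, the mouse Qa-1 molecule read by NKG2A receptors, averaged 59.3 ± 10.4 CPM in CMS7KO and 41.2 ± 13.1 CPM in ACRE hearts (SD, n = 4 each), with an adjusted p of 0.337. For H2-T23, CMS7KO 4 was level with CMS7KO 2, at 66.8 and 67.0 CPM. H2-M5, named after its values were seen, was the only class I gene with every CMS7KO heart above every ACRE heart, at 0.869 to 1.61 CPM in CMS7KO and 0 to 0.761 CPM in ACRE. The remaining tested chains, H2-Q4, H2-Q5, H2-T10, H2-T22 and H2-T24, had log2 fold changes of -0.18 to 0.71 and adjusted p-values of 0.388 to 0.831. H2-T10 and H2-T22 share 41.9% and 44.6% of their 50-base transcript windows with other H2 genes, mostly with each other, so that reads may be split between them.

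**Figure D2:**
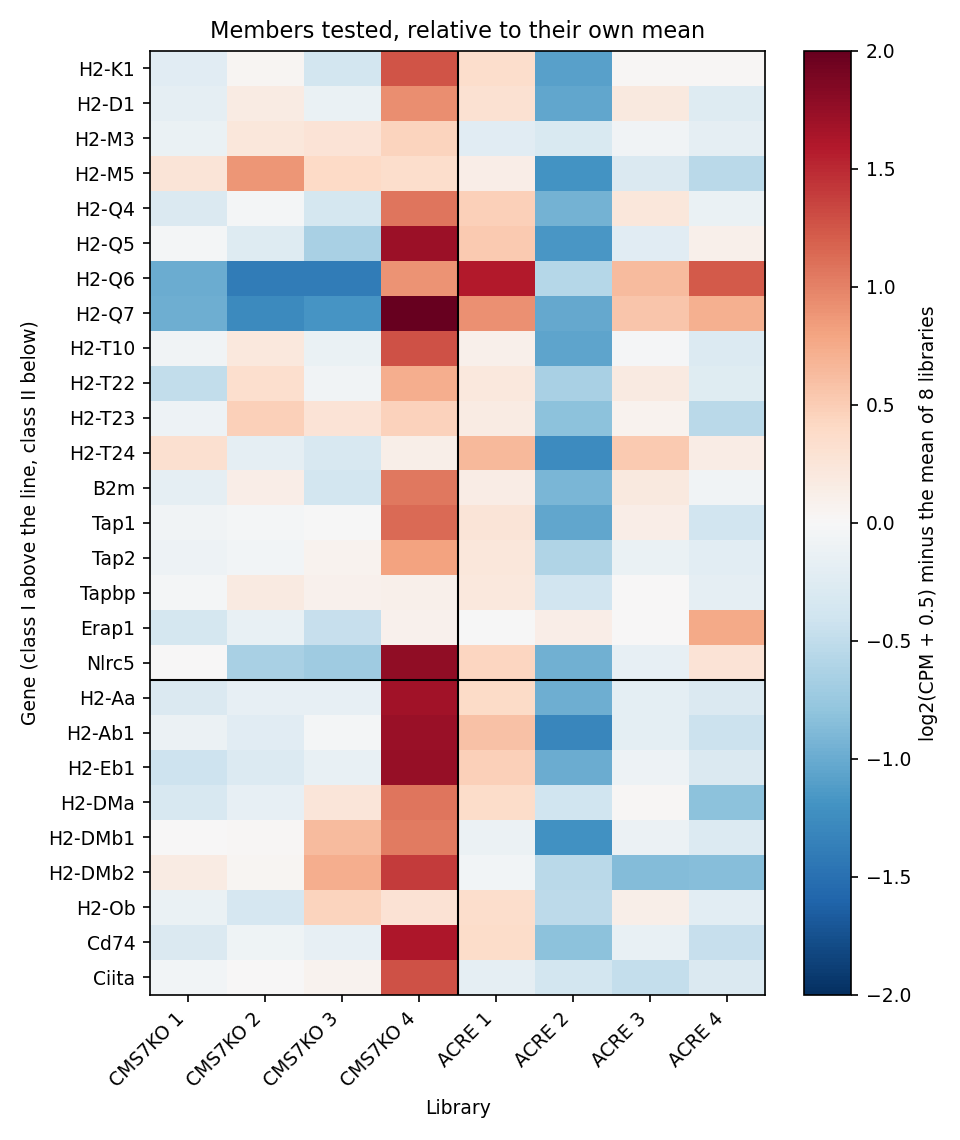
Each row is a tested gene and each column a library; the colour is log2(CPM + 0.5) relative to the average of that gene in all 8 libraries, red for above and blue for below. CMS7KO 4 is red in most rows and ACRE 2 blue in most, while H2-Q6 and H2-Q7 are blue in CMS7KO 1 to 3 and red in CMS7KO 4.

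H2-Q6 and H2-Q7 encode Qa-2 antigens, are neighbours on chromosome 17 (35643826 to 35649031 and 35658131 to 35662749 in the table), and departed from the other heavy chains. They were singled out after their values were seen. H2-Q6 had 0.580, 0.311, 0.316 and 3.51 CPM in CMS7KO 1 to 4, against 5.97, 0.939, 2.83 and 4.54 CPM in ACRE 1 to 4. H2-Q7 had 2.03, 1.56, 1.71 and 23.5 CPM in CMS7KO 1 to 4, against 8.89, 1.94, 6.78 and 7.63 CPM in ACRE 1 to 4. In CMS7KO 1 to 3, H2-Q6 was below every ACRE heart, whereas H2-Q7 was the highest of all 8 libraries in CMS7KO 4. The log2 fold change of H2-Q6 was -1.87 (SE 0.82, unadjusted p = 0.0483, adjusted p = 0.324 by edgeR), and -3.17 without CMS7KO 4 (adjusted p = 0.328). That of H2-Q7 was -0.33 (adjusted p = 0.863) with all libraries and -1.80 without CMS7KO 4 (adjusted p = 0.378).

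Relative to H2-K1 in the same library, H2-Q6 stood at 0.234%, 0.104%, 0.140% and 0.502% of its CPM in CMS7KO 1 to 4, against 1.61%, 0.684%, 0.958% and 1.54% in ACRE 1 to 4. By this ratio all 4 CMS7KO hearts were below all 4 ACRE hearts. CMS7KO 4, at 3.51 CPM of H2-Q6, lay inside the ACRE range before division by H2-K1, which was highest there at 700.2 CPM. H2-Q6 rests on 8, 6, 5 and 47 reads in CMS7KO 1 to 4, against 102, 14, 45 and 47 reads in ACRE 1 to 4. H2-Q7 relative to H2-K1 was 0.817%, 0.522%, 0.758% and 3.35% in CMS7KO, against 2.40%, 1.42%, 2.30% and 2.59% in ACRE hearts. Here CMS7KO 1 to 3 were below and CMS7KO 4 above every ACRE heart. H2-Q4, a nearby Q gene, kept to 19.2% to 22.1% of H2-K1 in CMS7KO and 19.7% to 25.1% in ACRE hearts. H2-Q6 and H2-Q7 share 27.0% and 31.5% of their 50-base transcript windows with other H2 genes, so that reads may be split between them. How far this moved their counts was not measured. The labels do not give the MHC haplotype of either group.

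**Figure D3:**
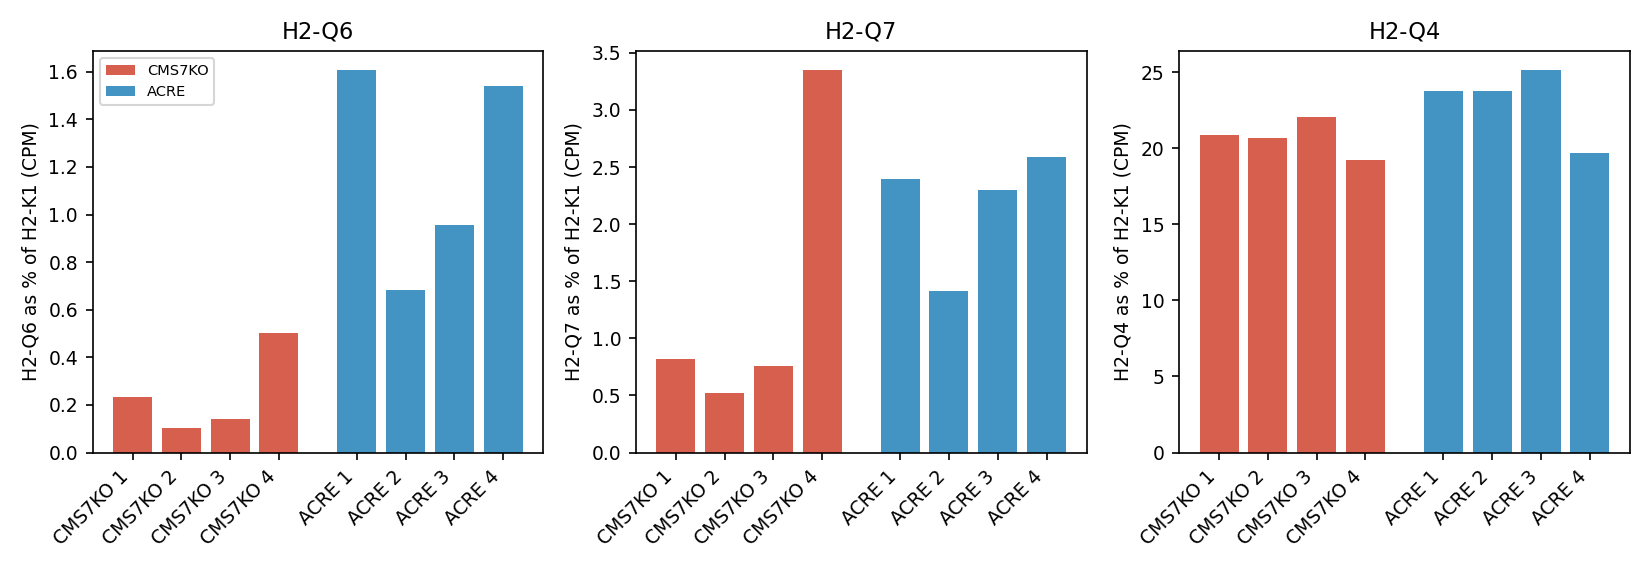
CPM of H2-Q6, H2-Q7 and H2-Q4 as a percentage of H2-K1 in the same library, a bar for each library, with CMS7KO in red to the left and ACRE in blue. H2-Q6 is at most 0.502% in CMS7KO and at least 0.684% in ACRE libraries, H2-Q7 is high in CMS7KO 4 alone among the knockouts, and H2-Q4 overlaps.

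The class II chains form the H2-A (H2-Aa with H2-Ab1) and H2-E (H2-Eb1 with H2-Ea) heterodimers. H2-Ea had only 8 reads over all libraries, against 6517 for H2-Eb1, and whether an H2-E protein was present was not tested. H2-Aa had 39.8, 43.6, 43.5 and 158 CPM in CMS7KO 1 to 4, against 63.8, 24.6, 42.5 and 39.7 CPM in ACRE 1 to 4. H2-Ab1 had 38.9, 35.8, 41.1 and 140.5 CPM in CMS7KO, against 63.4, 16.8, 36.9 and 31.1 CPM in ACRE hearts. H2-Eb1 had 34.8, 38.2, 42.0 and 157 CPM in CMS7KO, against 65.1, 23.0, 43.4 and 37.7 CPM in ACRE hearts. For all 3 chains CMS7KO 1 to 3 were inside the ACRE range, CMS7KO 4 was the highest library, ACRE 1 the next and ACRE 2 the lowest. The folds were 1.52 (0.74 to 3.10), 1.58 (0.71 to 3.5) and 1.42 (0.66 to 3.07) in that order, with adjusted p-values of 0.519, 0.532 and 0.616 by edgeR.

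Cd74, the invariant chain and the most abundant class II member, moved in step with the chains. It had 104, 119.6, 114 and 389.9 CPM in CMS7KO 1 to 4, against 164, 71.7, 115 and 91.9 CPM in ACRE 1 to 4, a fold of 1.52 (0.76 to 3.04, adjusted p = 0.510 by edgeR). H2-Aa held to 36.5% to 40.4% of the Cd74 CPM in CMS7KO and 34.3% to 43.2% in ACRE libraries, although Cd74 itself varied far more. Per kilobase Cd74 averaged 108 ± 82.7 CPM in CMS7KO and 65.9 ± 23.6 CPM in ACRE hearts, above H2-Eb1 at 35.0 ± 30.5 CPM in CMS7KO and 21.8 ± 8.98 CPM in ACRE hearts (SD, n = 4 each).

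Ciita, the class II coactivator, was 1 of 4 members with no overlap between the groups. Ciita (chromosome 16, 10297923 to 10346282 in the table) had 4.27, 4.51, 4.74 and 11.5 CPM in CMS7KO 1 to 4, against 3.86, 3.35, 3.08 and 3.57 CPM in ACRE 1 to 4. CMS7KO 1 to 3 lay just above the highest ACRE heart, and CMS7KO 4 again stood alone. The fold was 1.72 (1.01 to 2.95, unadjusted p = 0.0481, adjusted p = 0.323 by edgeR); without CMS7KO 4 the log2 fold change was 0.37, against 0.78 with it. Ciita overlaps Dexi on the opposite strand, which held 3525 reads against 577 for Ciita.

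H2-DM, the peptide editor of class II, has an alpha chain (H2-DMa) and beta chains from H2-DMb1 and H2-DMb2, neighbours on chromosome 17. H2-DMb1 had 5.00, 5.09, 8.02 and 10.8 CPM in CMS7KO 1 to 4, against 4.56, 1.88, 4.58 and 4.05 CPM in ACRE 1 to 4. H2-DMb2 had 1.30, 1.14, 2.15 and 3.74 CPM in CMS7KO 1 to 4, against 1.05, 0.603, 0.377 and 0.386 CPM in ACRE 1 to 4. Both had every CMS7KO heart above every ACRE heart, and they had the smallest p-values of all members. The fold of H2-DMb1 was 1.84 (1.15 to 2.96, unadjusted p = 0.0169, adjusted p = 0.284 by edgeR) and that of H2-DMb2 3.16 (1.30 to 7.65, unadjusted p = 0.0161, adjusted p = 0.283 by edgeR). Leaving out each library in turn kept the log2 fold change at 0.71 to 1.22 for H2-DMb1 and 1.30 to 2.11 for H2-DMb2. Relative to Cd74, H2-DMb2 was 0.955% to 1.88% in CMS7KO and 0.327% to 0.841% in ACRE libraries, without overlap, while H2-DMb1 overlapped at 2.76% to 7.04% in CMS7KO and 2.62% to 4.41% in ACRE libraries. Of the 50-base transcript windows, 27.2% of those in H2-DMb1 also occur in H2-DMb2, so that reads may be split between them, and H2-DMb2 rests on 161 reads in all. H2-DMa averaged 9.04 ± 4.51 CPM in CMS7KO and 6.47 ± 2.42 CPM in ACRE hearts (SD, n = 4 each), and it overlaps the highly expressed Brd2. H2-Ob, a chain of the H2-O inhibitor of H2-DM known from B cells, averaged 3.48 ± 0.979 CPM in CMS7KO and 3.13 ± 0.933 CPM in ACRE hearts.

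**Figure D4:**
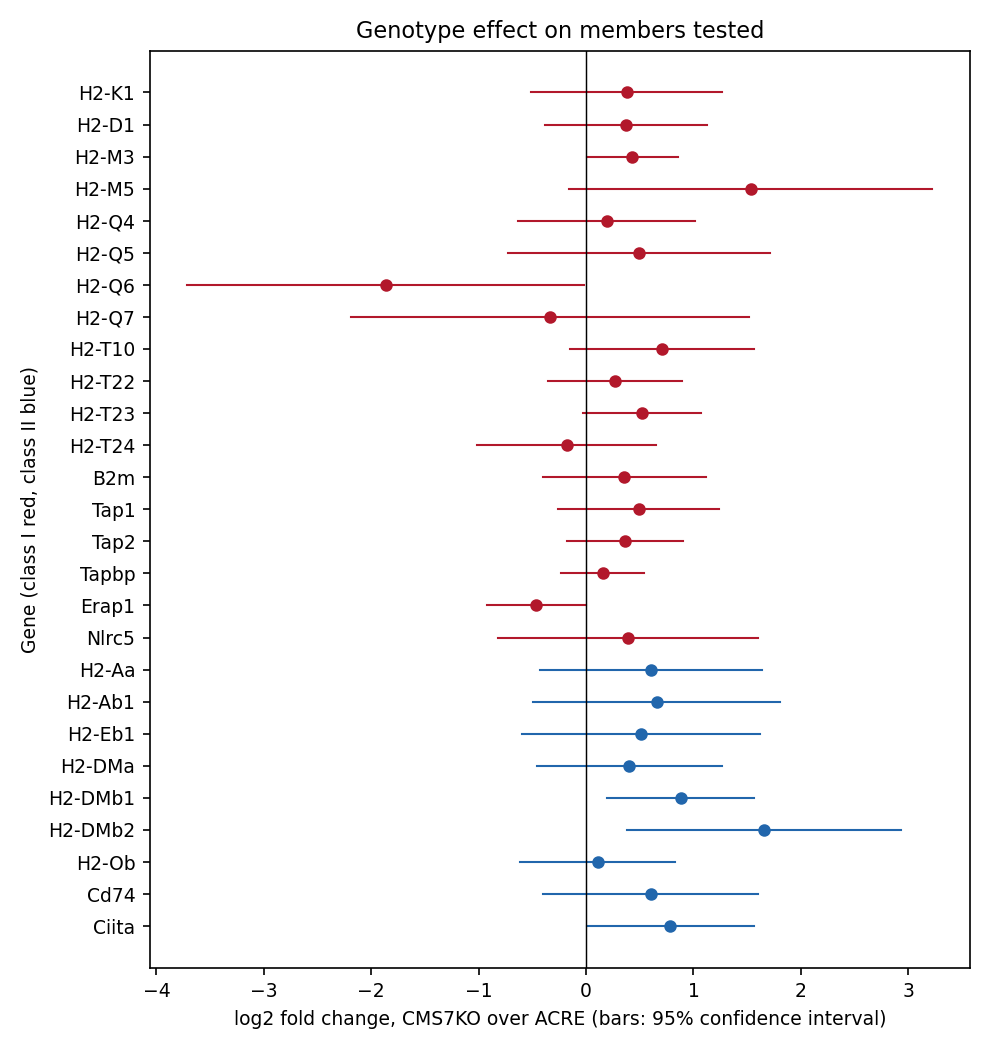
Log2 fold change of each tested class I (red) and class II (blue) gene, CMS7KO over ACRE, with its 95% confidence interval. All 9 class II points lie to the right of 0, the intervals of H2-DMb1, H2-DMb2, Ciita and H2-M3 lie wholly to the right of it and those of H2-Q6 and Erap1 wholly to the left, and no gene passed after adjustment over all genes.

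The other 18 members held too few reads to be tested. Of these, 6 class I heavy chains of the H2-M series (H2-M1, H2-M10.1, H2-M10.2, H2-M10.4, H2-M10.5 and H2-M11) had no read in any library, where a count of 0 allows up to 3 reads. The rest of class I, H2-Bl, H2-M2, H2-M9, H2-M10.3, H2-M10.6, H2-Q1, H2-Q2, H2-Q10 and H2-T3, totalled 1 to 61 reads each over the 8 libraries. H2-Q10, a secreted chain made mostly by liver, was the one with 61, of which 28 were in CMS7KO 4. In class II, H2-Oa had 6, 9, 15 and 7 reads in CMS7KO 1 to 4, against 4, 2, 3 and 0 reads in ACRE 1 to 4. H2-Ea had 5 and 3 reads in CMS7KO 1 and 2 and 0 in the other 6 libraries, and H2-Eb2 had 8 reads in all. H2-Ke6 was tested and averaged 0.708 ± 0.245 CPM in CMS7KO and 0.643 ± 0.580 CPM in ACRE hearts (SD, n = 4 each).

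Summed over all class II genes, CMS7KO 1 to 4 had 237, 257, 269.8 and 891 CPM, against 379.7, 149.5, 257 and 215 CPM in ACRE 1 to 4. Without CMS7KO 4, the knockout hearts lay inside the range of the ACRE hearts. The class I sums were 1257, 1534, 1222 and 2834 CPM in CMS7KO, against 1716, 772, 1557 and 1339.7 CPM in ACRE hearts. Per kilobase, the class II chains reached 16.6%, 13.8%, 18.6% and 28.2% of the class I heavy chains in CMS7KO, against 19.5%, 16.5%, 14.3% and 15.1% in ACRE hearts. CMS7KO 4 was the highest of the 8 libraries for 12 of 18 class I genes and 8 of 9 class II genes, against 10.9% of all genes tested. ACRE 2 was the lowest for 15 of 18 class I genes and 6 of 9 class II genes, against 20.2% of all genes. ACRE 4, the only ACRE library with Xist transcripts, had class I and class II sums inside the range of the other ACRE hearts. CMS7KO 4 was the only CMS7KO library with them, so the part of sex in its levels was not tested.

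**Figure D5:**
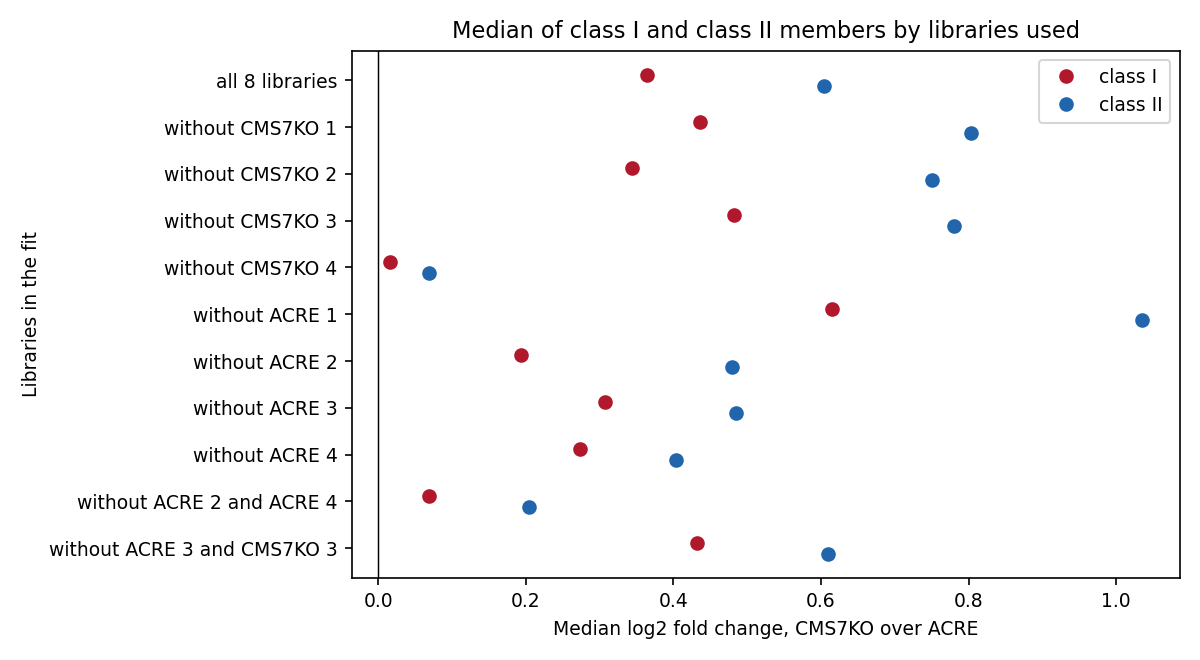
Median log2 fold change, CMS7KO over ACRE, of the tested class I genes (red) and class II genes (blue) with all 8 libraries and with the libraries named on the vertical axis left out. The medians are 0.36 and 0.60 with all libraries, 0.02 and 0.07 without CMS7KO 4, and 0.07 and 0.20 without ACRE 2 and ACRE 4.

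Promoters of class I and class II genes whose highest library was CMS7KO 4 are shown, although H2-DMb1 there was only 1.34 times the next library. Short motifs of the class I and class II regulatory module, the X1, X2 and Y boxes, are marked. Nlrc5 and Ciita work through factors bound to this module. Cores of the interferon-stimulated response element and of a kappa B site, which are other elements, are marked too. The sequences are RefSeq promoters on build GRCm38.p6, from 250 bases before to 50 after the gene start, on the gene's strand. Capitals mark GATTGG (core of the Y box), TGACG (core of the X2 box), AGCAAC (core of the X1 box), GAAANNGAA (core of the interferon-stimulated response element) and GGATTCC (core of a kappa B site), on either strand. The windows are chr17:34287774-34288073 on the minus strand for H2-Aa, chr17:34305617-34305916 on the plus strand for H2-Eb1, and chr17:34152941-34153240 on the plus strand for H2-DMb1. For class I they are chr17:34000298-34000597 on the minus strand for H2-K1, chr2:122147437-122147736 on the plus strand for B2m, and chr17:35438905-35439204 on the plus strand for H2-Q7.
H2-Aa: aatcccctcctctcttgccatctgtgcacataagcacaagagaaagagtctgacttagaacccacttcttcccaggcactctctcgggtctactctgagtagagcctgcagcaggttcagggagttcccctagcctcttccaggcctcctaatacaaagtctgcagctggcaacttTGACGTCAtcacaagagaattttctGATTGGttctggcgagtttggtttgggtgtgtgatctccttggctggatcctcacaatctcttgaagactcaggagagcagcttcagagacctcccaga
H2-Eb1: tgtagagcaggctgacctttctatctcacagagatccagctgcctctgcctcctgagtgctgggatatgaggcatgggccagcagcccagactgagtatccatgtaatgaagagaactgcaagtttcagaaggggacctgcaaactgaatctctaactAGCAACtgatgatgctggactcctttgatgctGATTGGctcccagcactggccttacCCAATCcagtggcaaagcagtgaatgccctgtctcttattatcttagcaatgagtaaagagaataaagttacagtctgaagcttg
H2-DMb1: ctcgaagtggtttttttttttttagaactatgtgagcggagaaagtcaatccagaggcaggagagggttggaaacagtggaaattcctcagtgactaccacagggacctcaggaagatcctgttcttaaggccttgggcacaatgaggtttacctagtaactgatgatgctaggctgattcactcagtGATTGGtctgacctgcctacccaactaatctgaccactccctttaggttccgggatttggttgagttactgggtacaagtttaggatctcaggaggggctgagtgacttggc
H2-K1: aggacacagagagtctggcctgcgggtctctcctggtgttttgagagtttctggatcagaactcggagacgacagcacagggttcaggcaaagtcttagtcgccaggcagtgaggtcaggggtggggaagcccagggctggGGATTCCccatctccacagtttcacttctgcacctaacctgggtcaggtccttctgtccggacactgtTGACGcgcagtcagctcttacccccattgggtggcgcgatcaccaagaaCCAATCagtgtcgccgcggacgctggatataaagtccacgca
B2m: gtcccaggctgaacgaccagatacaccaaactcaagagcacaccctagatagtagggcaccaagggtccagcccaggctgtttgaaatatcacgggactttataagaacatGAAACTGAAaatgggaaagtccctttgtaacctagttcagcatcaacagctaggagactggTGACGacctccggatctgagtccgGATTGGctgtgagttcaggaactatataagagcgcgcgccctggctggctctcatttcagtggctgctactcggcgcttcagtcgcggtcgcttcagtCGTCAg
H2-Q7: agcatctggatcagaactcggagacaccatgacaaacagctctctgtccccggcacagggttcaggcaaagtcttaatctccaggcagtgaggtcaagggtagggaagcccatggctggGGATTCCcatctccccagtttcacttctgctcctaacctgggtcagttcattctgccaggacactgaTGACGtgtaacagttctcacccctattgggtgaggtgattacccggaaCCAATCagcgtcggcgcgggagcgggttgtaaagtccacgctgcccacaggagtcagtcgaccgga

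GATTGG was found in all 6 tested class II genes with a promoter in the table (H2-Aa, H2-Eb1, H2-DMa, H2-DMb1, H2-DMb2 and H2-Ob) and in 9 of 13 class I genes, against 16.1% of 32851 promoters of the same length. It starts 49 bases before the gene start in H2-Aa, 62 in H2-DMb1 and 54 in B2m, and H2-Eb1 holds it on both strands, 60 and 35 bases before the start. TGACG was found in 8 of 13 class I genes and in 1 of 6 class II genes, H2-Aa, against 20.8% of all promoters. In H2-Aa its matches on the 2 strands overlap each other, 74 and 71 bases before the start. GGATTCC was found in 5 of 13 class I genes (H2-K1, H2-D1, H2-M5, H2-Q6 and H2-Q7) and in 0 of 6 class II genes, against 3.79% of all promoters. GAAANNGAA was found in 4 of 13 class I genes (B2m, Erap1, H2-T22 and H2-T23) and in 0 of 6 class II genes, against 8.56% of all promoters. AGCAAC was found in 2 of 13 and 2 of 6 genes, against 14.8% of all promoters. A gene was counted if any of its promoters held the motif, while the shares of all are per promoter. The counts of genes and these shares are therefore not the same measure. A match is a run of letters only, and a promoter without one says nothing of the factor.

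Genes that make and load class I peptides outside the member list did not move as a block. None of 14 passed the threshold, 5 were higher and 9 lower in CMS7KO, and their median log2 fold change was -0.18, against -0.01 for all genes tested. The chaperones Hspa5 (234 ± 41.9 CPM in CMS7KO, 393 ± 174 CPM in ACRE) and Calr (205 ± 24.4 CPM in CMS7KO, 232 ± 31.0 CPM in ACRE) were its most abundant genes, followed by Canx and Pdia3. The immunoproteasome subunits Psmb8 and Psmb9, picked after their values were seen, were highest in CMS7KO 4 and lowest in ACRE 2. Psmb9 had 15.3, 18.1, 16.4 and 38.9 CPM in CMS7KO 1 to 4, against 21.3, 6.10, 15.4 and 10.9 CPM in ACRE 1 to 4. It overlaps Tap1 on the opposite strand.

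Of 11 lysosomal and other genes of class II processing, 6 were higher and 5 lower, with a median of 0.07 and 0 past the threshold. The cathepsins Ctsb (619 ± 66.5 CPM in CMS7KO, 593 ± 174 CPM in ACRE) and Ctsd (459.9 ± 95.4 CPM in CMS7KO, 559 ± 190.0 CPM in ACRE) overlapped, as did Lamp1 and Ctsl. The cathepsin Ctsh, picked after its values were seen, had every CMS7KO heart above every ACRE heart, at 37.8 ± 4.25 CPM in CMS7KO and 25.2 ± 3.77 CPM in ACRE hearts (SD, n = 4 each; adjusted p = 0.223 by edgeR). Of 16 transcription factor genes for the MHC, 13 were higher and 3 lower, with a median of 0.27 and 0 past the threshold. The most abundant, Nfkb1, Stat2, Rela and Nfyc, had log2 fold changes of 0.23, 0.42, 0.17 and 0.00.

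Ifng itself had 4 reads in all 8 libraries. Of 17 tested genes of the interferon gamma axis, receptors, signalling and targets, 12 were higher and 5 lower in CMS7KO, with a median of 0.27 and 0 past the threshold. The kinase gene Jak1 averaged 112 ± 5.40 CPM in CMS7KO and 151 ± 33.3 CPM in ACRE hearts (SD, n = 4 each), and the receptor genes Ifngr1 and Ifngr2 had log2 fold changes of 0.11 and -0.84. The interferon-inducible GTPase Iigp1 had 43.1, 36.4, 40.4 and 123 CPM in CMS7KO 1 to 4, against 52.5, 25.8, 44.7 and 69.5 CPM in ACRE 1 to 4. Igtp, a GTPase of the same family picked after its values were seen, had 16.8, 14.2, 16.9 and 80.2 CPM in CMS7KO, against 23.99, 18.6, 16.8 and 23.1 CPM in ACRE hearts. Both were highest in CMS7KO 4, the heart with the highest Nlrc5, Ciita, class I and class II levels. CMS7KO 4 held 4.75 times the next highest knockout heart for Igtp and 2.84 times for Iigp1. The other tested targets, named here for their range, lay from 1.10 times (Gbp3) to 3.39 times (Gbp6), with Gbp2, Gbp4 and Gbp7 at most 1.15 times. Gbp6, Ifngr1, Ifngr2, Jak1 and Jak2 were highest in ACRE libraries. The part of interferon signalling in the levels of CMS7KO 4 was not tested.

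Costimulatory and T cell contact genes were higher in CMS7KO for 8 of 8 tested, with a median of 0.53 and 0 past the threshold. Their summed level was 85.3 to 134 CPM in CMS7KO and 58.2 to 82.3 CPM in ACRE hearts, without overlap. The adhesion molecule gene Icam1 averaged 27.6 ± 7.40 CPM in CMS7KO and 21.4 ± 4.79 CPM in ACRE hearts, and Cd40, a receptor for T cell help, 10.4 ± 1.06 CPM in CMS7KO and 6.41 ± 2.90 CPM in ACRE hearts (SD, n = 4 each). Icosl and Cd274, which lay between them in abundance, had log2 fold changes of 0.39 and 0.23. Of 6 class I-like genes outside the H2 region, 4 were higher and 2 lower, with a median of 0.31. Fcgrt, the neonatal Fc receptor, averaged 123 ± 16.2 CPM in CMS7KO and 99.6 ± 14.6 CPM in ACRE hearts, while Hfe, Mr1 and Ulbp1 had log2 fold changes of 0.31, -0.03 and -0.39. Cd1d1, which presents lipids to NKT cells and was picked after its values were seen, had every CMS7KO heart above every ACRE heart, at 4.61 to 7.32 CPM in CMS7KO and 2.08 to 2.99 CPM in ACRE (adjusted p = 0.184 by edgeR).

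Markers of the cells that can carry class II were summed in each library, and their part in the values above was not tested. No single marker passed the threshold, which 0.0358% of all genes did. The macrophage and monocyte list had 14 of 16 genes higher and 2 lower, with a median log2 fold change of 0.63. At an unadjusted p under 0.05 by edgeR, 9 of these 16 were higher (7.12% of all genes were). So were 3 genes of the B cell list and 1 of the dendritic cell list. The summed level of the macrophage list was 770, 736, 804 and 869 CPM in CMS7KO 1 to 4, against 496, 624, 571 and 373 CPM in ACRE 1 to 4, without overlap. Its abundant genes included C1qa at 154 ± 13.7 CPM in CMS7KO and 87.6 ± 26.9 CPM in ACRE hearts, with C1qb, Csf1r and C1qc next. The sum leans on C1qa, C1qb and C1qc, each higher in every CMS7KO heart than in every ACRE heart (5.41% of all genes). So were Cd68, Cd14, Fcgr1, Cx3cr1 and Trem2. Csf1r, Mrc1, Ccr2, Ly6c2, Timd4 and Mertk overlapped between groups. Adgre1 and Lyve1 overlapped too and were the lower genes, with log2 fold changes of -0.04 and -0.02. The B cell list was higher for 10 of 10 (median 0.72), with a sum of 59.5 to 83.3 CPM in CMS7KO and 23.3 to 49.7 CPM in ACRE hearts. Its abundant genes included Blk, Ighm and Ighd. In CMS7KO 4 class II was high against the macrophage markers too: its class II sum was 103% of the macrophage sum, and that of CMS7KO 1 to 3 was 30.8% to 35.0%, against 23.9% to 76.5% in ACRE hearts. The dendritic cell list was higher for 8 of 10 (median 0.18) with sums of 64.9 to 86.8 CPM in CMS7KO and 41.6 to 85.7 CPM in ACRE hearts. It was led by Zbtb46, Clec9a, Clec10a and Cd24a. Zbtb46 made up most of each sum, at 44.1 to 56.1 CPM in CMS7KO and 28.2 to 58.9 CPM in ACRE hearts. The dendritic cell sum therefore mainly follows that gene. The marker Xcr1 of the same list, picked after its values were seen, had 0.290, 0, 0.0632 and 1.94 CPM in CMS7KO, against 0.527, 0.0671, 0 and 1.16 CPM in ACRE hearts. No gene of the macrophage, B cell or dendritic cell lists was at 0 in all libraries.

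Other cell types were checked in the same way. T and NK cell genes were higher for 7 of 7 tested (median 0.55), led by Thy1, Cd4, Lat and Cd8a. Their sums were 31.6 to 55.8 CPM in CMS7KO, highest in CMS7KO 4, and 21.4 to 42.8 CPM in ACRE hearts. Thy1 made up most of each sum, at 27.0 to 40.4 CPM in CMS7KO and 17.6 to 36.8 CPM in ACRE hearts. Every other tested gene of this list was highest in CMS7KO 4, with Cd4 at 4.78 CPM there and 0.965 to 2.02 CPM elsewhere. Thymocyte genes summed to at most 0.695 CPM in CMS7KO and 0.579 CPM in ACRE libraries with Ptcra at 0 in all. The neutrophil sum was 0.519 to 9.49 CPM in CMS7KO, highest in CMS7KO 4, and 0.176 to 2.99 CPM in ACRE hearts, with Ly6g at 0 in all. Genes of endothelial cells, which are known to carry class I, were higher for 8 of 10 (median 0.18), with sums of 2630 to 3169 CPM in CMS7KO and 1691 to 3760 CPM in ACRE hearts. ACRE 2, the library with the lowest class I level, also had the lowest endothelial sum. Its class I heavy chain sum was 24.05% of the endothelial sum; the other libraries had 22.6% to 57.8% in CMS7KO and 23.99% to 34.3% in ACRE hearts. Fibroblast genes were higher for 10 of 10 (median 0.70) and cardiomyocyte genes lower for 10 of 10 (median -0.42). At an unadjusted p under 0.05 by edgeR, 6 fibroblast genes were higher (7.12% of all genes were) and 2 cardiomyocyte genes lower (8.2% of all genes were). The fibroblast sums were 3501 to 7692 CPM in CMS7KO and 2518 to 3493 CPM in ACRE hearts, without overlap. Myh6, which marks the tissue as heart, ranged over 9574 to 17079 CPM in CMS7KO and 14582 to 44054 CPM in ACRE libraries. No gene of these lists passed the threshold, which 0.0358% of all genes did.

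The genotype effect was also fitted within each sex label, with 2 hearts per group. The class II median log2 fold change was -0.08 among hearts labelled male and 1.29 among hearts labelled female. That of class I was 0.12 among hearts labelled male and 0.55 among hearts labelled female. The test of the difference itself passed for 0 of 28 members after adjustment by edgeR (0 of all genes, 0%), and for 1 member, H2-DMb2, at an unadjusted p under 0.05 (1.06% of all genes). The hearts labelled female include CMS7KO 4 and, in each group, the library whose transcripts went against that label.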

How the data were processed

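Per the labels, polyadenylated RNA was extracted from whole hearts with Trizol and sequenced at a service provider. The authors deposited 1 table of raw read counts per gene with a gene length column. Tools listed by the submitters' processing notes, without roles, are HTSeq 0.6.1, Cufflinks 2.1.1, TopHat2 2.0 and CASAVA, and the listed builds are mm10 and GRCm38.p6. Strand setting and annotation release are not stated in the labels. Of the 46 members, 0 had the same start as in GENCODE M21 on GRCm38, so positions are given in the table's own coordinates with no build named.

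The counts went into edgeR 4.0.16 under R 4.3.3 (filterByExpr with a minimum count of 10 on genotype by sex label, TMM scaling, factors 0.803 to 1.13, robust quasi-likelihood F test on genotype plus sex label, 5 residual degrees of freedom) and Benjamini-Hochberg adjustment over all 16780 genes at 0.05. The biological coefficient of variation was 30.3%. Intervals use the test's moderated degrees of freedom. DESeq2 1.42.0 and limma 3.58.1 (voom) were alternatives, with another scaling, no filter, no covariate, a replicate block and libraries left out. CPM per kilobase uses the deposited length. The scripts were tested on simulated data. All pairs of libraries differed by more than sampling noise (smallest chi-square per degree of freedom 17.5), and the labels call the 4 samples of a group independent.

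Members and lists were chosen with earlier results of these data known. Given per library were the main chains, B2m, Tap1, Nlrc5, Cd74, Ciita and the 4 other members with the smallest p; of the lists, the 4 genes with the highest mean CPM were named, except for a withheld item that is not reported here. Similarity between members is given as shared transcript windows, since protein sequences were not used here. RefSeq promoters matched 35 members, 20 of them tested. Replicate numbers were not taken to pair the hearts. Limits from a count of 0 (3 reads) and intervals cover counting error or the spread of these libraries only.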

Additional observations from a re-analysis of the deposited data

Results flagged for a closer look

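In groups of 4 hearts, a library was picked out where its gap to the nearest other heart was above Dixon's 95% critical value, as a share of the group's range, which chance does in about 1 of 20 groups. Among 56 groups (28 tested members in CMS7KO and in ACRE), this picked out 14 members in CMS7KO and 2 in ACRE. All 14 in CMS7KO were high in the same library, CMS7KO 4, and because these genes move together they are not 14 separate observations.

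The class I genes high in CMS7KO 4 were H2-K1 (700.2 CPM), H2-Q4 (135 CPM), H2-Q5 (31.5 CPM), H2-Q6 (3.51 CPM), H2-Q7 (23.5 CPM), H2-T10 (15.2 CPM), Nlrc5 (47.8 CPM), Tap1 (77.3 CPM) and Tap2 (65.1 CPM). The class II genes high in CMS7KO 4 were Cd74 (389.9 CPM), Ciita (11.5 CPM), H2-Aa (158 CPM), H2-Ab1 (140.5 CPM) and H2-Eb1 (157 CPM). The sum over all class II genes was 891 CPM in CMS7KO 4, 3.30 times the next highest CMS7KO heart.

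In ACRE hearts, Erap1 was high in ACRE 4, at 60.0 CPM, and H2-Ke6 was high in ACRE 3, at 1.51 CPM.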

How the results depend on the processing

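Of 28 members, 0 were called under DESeq2, limma voom, DESeq2-type size factors, no sex covariate, the replicate block or any left-out set of libraries. With no filter on low counts, 1 was called higher (H2-DMb2, log2 fold change 1.66, adjusted p = 0.0431) and 1 lower (H2-Q6, -1.87, adjusted p = 0.000917), and all genes gave 456 higher and 912 lower calls. DESeq2 gave 276 and 208 calls, no covariate 3 and 5, and leaving out ACRE 2 and ACRE 4 gave 86 and 89. Leaving out ACRE 3 and CMS7KO 3 gave 0 and 1. With the replicate block, 1 gene was called higher and 2 lower, and the medians were 0.34 for class I and 0.53 for class II. Same-numbered hearts had correlations of -0.21, -0.24, 0.13 and 0.22. The same-numbered ACRE heart was the closest for CMS7KO 3 and CMS7KO 4 but not for CMS7KO 1 and CMS7KO 2. Whether the numbers pair the hearts was not tested.

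Leaving out each heart in turn gave 0 to 10 genes called higher, 0 to 7 lower, 0 members, and medians of 0.02 to 0.61 for class I and 0.07 to 1.04 for class II; both low ends came without CMS7KO 4. Signs turned in log2 fold changes that had not passed the threshold, over ranges of -0.10 to 0.78 (H2-K1), -0.0158 to 0.62 (B2m), -0.43 to 0.87 (Nlrc5), -0.23 to 0.60 (H2-Q4), -0.30 to 1.07 (H2-Q5), -1.80 to 0.47 (H2-Q7), -0.51 to 0.21 (H2-T24), -0.00309 to 1.01 (Cd74), -0.0280 to 1.07 (H2-Aa), -0.16 to 1.04 (H2-Eb1), -0.0438 to 0.42 (H2-Ob) and -0.0934 to 1.03 (H2-Ke6). H2-Q7 was 0.17 without the covariate and H2-T24 0.0464 without ACRE 3 and CMS7KO 3. Without ACRE 2 and ACRE 4, values were -0.00710 (H2-D1), -0.19 (H2-Q4), -0.0231 (H2-T22), -0.0274 (Tapbp), -0.00358 (H2-DMa), -0.21 (H2-Ob) and -0.34 (H2-Ke6). The cause was not tested. The SE of the log2 fold change was 0.83 for H2-Q7, 0.82 for H2-Q6 and 0.75 for H2-M5, against 0.17 for Tapbp.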
